A study of Mus musculus with 6 samples.

Results

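The genes described here carry the Wnt signal: its ligands, the receptors and secreted modulators that act on them, and the proteins that pass the signal to the nucleus. They were chosen by symbol alone: a symbol made of Wnt, Fzd, Dkk, Sfrp, Axin, Rspo, Nkd, Dvl or Tle followed by a digit, the Tcf7 genes (Tcf7, Tcf7l1 and Tcf7l2), or 1 of a short list of single pathway genes such as Ctnnb1, Lef1 and Ryk. Of the 12803 genes in the table, 49 met this rule, and 48 of them were high enough to be tested. In the mouse annotation GENCODE M21, 73 protein-coding symbols meet the same rule. The genes outside the table include Wnt1, Wnt3a, Dkk1, Lgr5, Ror2 and all 4 R-spondins, and they were not analysed here.

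The samples were RNA-seq libraries from cultured mouse kidney cells. The 3 KO libraries came from a podocyte-derived line in which Myosin 1e, a membrane-associated actin motor encoded by Myo1e, was knocked out. The 3 WT libraries came from a murine podocyte line of WT genotype, labelled Mundel. The labels give no treatment or time for either group, and a heterozygous genotype named in the design text was not analysed here. Each genotype was 1 line, so an effect of the knockout and any other difference between the lines cannot be told apart. All levels below are in CPM, counts-per-million, the reads of a gene scaled to the size of its library.

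Wnt proteins are secreted lipid-modified ligands that bind Frizzled receptors on the cell surface. In the canonical branch, Wnt, Frizzled and the co-receptors Lrp5 and Lrp6 recruit Dishevelled and stop a destruction complex of Axin, Apc and the kinase Gsk3b from marking β-catenin (Ctnnb1) for degradation, so that β-catenin enters the nucleus and acts with the TCF/LEF factors. Other branches pass through Ror and Ryk receptors or the planar polarity proteins to the cytoskeleton without β-catenin. In the kidney, Wnt signals drive the formation of the nephron and the collecting duct, and β-catenin activity in podocytes is known from models of proteinuric disease.

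Each library had between 35447096 and 42106461 reads in genes of the table, and 3 reads equalled 0.0703 to 0.0856 CPM. Myo1e itself was at 18.9, 16.3 and 16.8 CPM in KO libraries 1 to 3, against 184, 180.2 and 168 CPM in WT libraries 1 to 3. Its log2 fold change, KO minus WT, was -3.35 (SE 0.09, limma adjusted p = 2.1e-08), and an exact two-sided permutation test gave p = 0.1, the smallest that 3 against 3 libraries allow. The lines also differed in cell type markers. Risen and fallen markers are those past the limma threshold defined in the next paragraph. Of all tested genes 34.3% rose and 33.8% fell by it. Of 15 podocyte markers 10 were in the table, 3 risen and 6 fallen in KO. Their summed level was 1314 to 1655 CPM in KO and 2200 to 2536 CPM in WT. Most of the KO sum was the risen Nes and Cd2ap, with means of 627 and 390 CPM, against 449 and 275 CPM in WT. Podxl also rose. Among the 6 that fell, Plce1 averaged 1.37 CPM in KO and 226 CPM in WT, and Wt1 0.125 CPM in KO and 4.40 CPM in WT. Synpo and Kirrel averaged 209 and 165 CPM in KO, against 681 and 603 CPM in WT. The slit diaphragm gene Nphs1 was not analysed here. All 15 epithelial markers were in the table, 14 risen and 1 fallen in KO. Their summed levels were 8355 to 9105 CPM in KO and 806 to 1224 CPM in WT. Nearly all of the WT sum was Cdh16, the marker that fell, at 943, 1198 and 783 CPM in WT libraries 1 to 3. In the WT libraries Cldn3, Cldn7 and Esrp1 had 0 reads. Of 17 mesenchymal markers 13 were in the table, 1 risen and 12 fallen in KO. They summed to 723 to 825 CPM in KO and 3214 to 3716 CPM in WT. Nearly all of the KO sum was Cdh2, the marker that rose, at 753, 805 and 703 CPM in KO libraries 1 to 3. None of 9 endothelial markers and 2 of 8 leukocyte markers were in the table. The part of these marker differences in the Wnt results was not tested.

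Most Wnt pathway genes differed between the lines, as did most genes of the table. A gene passed when its adjusted p in limma, with Benjamini-Hochberg adjustment over the 12616 genes tested, was under 0.05. Of the 48 Wnt genes tested, 14 rose and 22 fell in KO and 12 did not pass. Over all tested genes 68.1% passed, with 34.3% risen and 33.8% fallen, so the share of Wnt genes that passed, 75%, was near the background. Their median log2 fold change was -0.13, against 0.01 over all tested genes. At least 2-fold, 9 Wnt genes rose and 12 fell, where 11.7% of all tested genes rose and 16.2% fell by that much. The KO libraries all lay above the WT libraries for 13 Wnt genes, against 37.2% of all tested genes, and all below them for 22, against 36.4%. In bulk RNA, fewer cells of a type and less RNA per cell cannot be told apart.

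The largest changes fell on a few genes that moved in opposite directions within 1 family. The ligands Wnt10a, Wnt7a and Wnt16 and the antagonist Dkk2 rose by the largest folds, and the antagonist Dkk3, the ligand Wnt5a and the nuclear factor Lef1 fell by the largest. Of 10 receptors, 1 rose, 7 fell and 2 did not pass, and of 8 ligands, 5 rose, 2 fell and 1 did not pass, where 34.3% of all tested genes rose and 33.8% fell. KO library 3 had the lowest level of the 3 KO libraries in 33 of the 48 Wnt genes, or 68.8%, against 38.0% of all tested genes. Its median log2 level minus that of the other KO libraries was -0.27 over the Wnt genes, against 0.0014 over all tested genes. WT library 3 was the lowest WT library in 24 of the 48 Wnt genes, or 50%, against 37.8% of all tested genes. Without KO library 3, 14 Wnt genes rose and 21 fell, against 14 and 22 with it. The share of all tested genes called without that library is not given here.

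**Figure D1:**
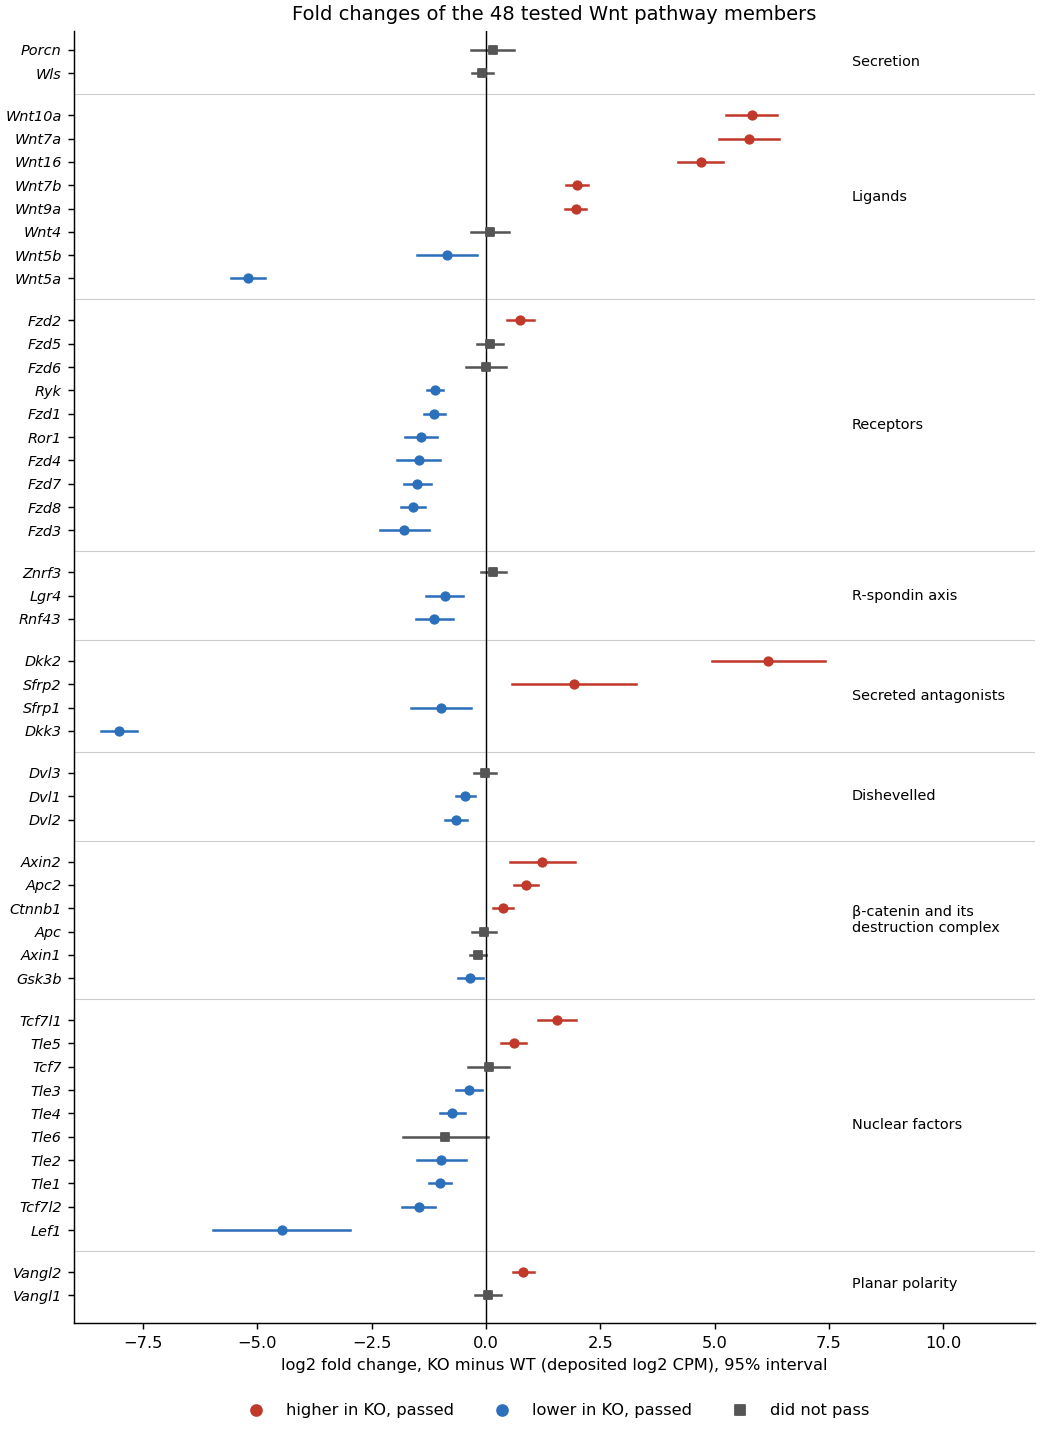
Log2 fold change, KO minus WT, of the 48 tested Wnt genes (horizontal axis) by role from top to bottom; points are limma estimates on the deposited log2 CPM, lines their 95% intervals, red higher and blue lower in KO past the threshold, grey squares not past it. The intervals of Wnt10a, Wnt7a and Wnt16 lie far to the right, those of Wnt5a, Dkk3 and Lef1 far to the left, and the whole intervals of 7 of the 10 receptors lie left of 0; the point of Dkk2 depends on the prior because WT held 2 reads.

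Neither gene of the machinery that releases Wnt ligands passed. Porcn, the enzyme that attaches the lipid, was at 4.43, 7.22 and 5.78 CPM in KO and 5.57, 4.42 and 5.48 CPM in WT, with overlapping groups. Wls, the carrier that brings lipidated Wnts to the cell surface, averaged 505 ± 17.8 CPM in KO and 537 ± 61.5 CPM in WT (SD, n = 3 each). The limma test did not separate the lines for either gene (adjusted p = 0.54 for Porcn and 0.50 for Wls), with 95% intervals of the log2 difference of -0.32 to 0.62 and -0.32 to 0.15.

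Of the 8 Wnt ligands in the table, 5 rose in KO, 2 fell and Wnt4 did not pass, with a median log2 fold change of 1.98, against 34.3% risen and 33.8% fallen and a median of 0.01 over all tested genes. Wnt7a and Wnt7b are close paralogues that signal through β-catenin, and Wnt7b is the ligand of the ureteric bud that builds the renal medulla. Wnt7a was at 304, 268 and 276 CPM in KO, against 3.14, 5.61 and 8.03 CPM in WT. Every KO library lay above every WT library, by 50.5-fold in the means (log2 fold change 5.75, SE 0.29, limma adjusted p = 5.6e-07). The gene lies on chromosome 6 from 91363981 to 91411363, minus strand, in GRCm38. Wnt7b, on chromosome 15 from 85535437 to 85582473, minus strand, was at 519.8, 576 and 493 CPM in KO and 149, 120.0 and 131 CPM in WT. It was expressed in all 6 libraries and was 3.97-fold higher in KO (log2 fold change 1.99, SE 0.10, limma adjusted p = 7.1e-07). An antisense gene overlaps 6.61% of its exon bases and had 1.51 CPM in KO and 2.13 CPM in WT.

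Wnt10a, a ligand of tooth, hair and skin development, lies on chromosome 1 from 74791516 to 74804179, plus strand. It was at 75.5, 54.2 and 73.3 CPM in KO and 0.843, 1.14 and 1.64 CPM in WT. It was low in every WT library and 56.1-fold higher in KO (log2 fold change 5.81, SE 0.24, limma adjusted p = 2.1e-07). Wnt16, known from bone, lies on chromosome 6 from 22288227 to 22298522, plus strand, and was at 7.78, 5.85 and 7.14 CPM in KO and 0.211, 0.259 and 0.254 CPM in WT. Its groups did not overlap and its mean was 28.7-fold higher in KO (log2 fold change 4.69, SE 0.22, limma adjusted p = 3.9e-07). Wnt9a, a ligand of joint formation on chromosome 11 from 59306928 to 59333552, plus strand, was at 169, 148 and 135 CPM in KO and 41.0, 36.0 and 38.9 CPM in WT. Like Wnt7b it was expressed in both lines and was 3.91-fold higher in KO (log2 fold change 1.96, SE 0.10, limma adjusted p = 6.6e-07).

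Wnt5a went the other way. This ligand, the classical activator of the branches without β-catenin, lies on chromosome 14 from 28504750 to 28527448, plus strand. It was at 25.5, 16.6 and 16.7 CPM in KO and 719.7, 762 and 649 CPM in WT. The KO mean was 36.3-fold lower, with no overlap between the groups (log2 fold change -5.21, SE 0.16, limma adjusted p = 4.7e-08). An antisense gene overlaps 4.58% of its exon bases and had 0.0259 CPM in KO and 1.89 CPM in WT. Its paralogue Wnt5b was low in both lines, at 1.43, 1.17 and 0.743 CPM in KO and 2.44, 1.76 and 1.75 CPM in WT (log2 fold change -0.85, SE 0.29, limma adjusted p = 0.028). That call was lost without KO library 3 (limma adjusted p = 0.071) and without WT library 1 (limma adjusted p = 0.085). Wnt4, which turns kidney mesenchyme into nephron epithelium, was at 26.6, 23.6 and 24.2 CPM in KO and 31.6, 21.4 and 18.5 CPM in WT. Its groups overlapped, and it did not pass (log2 difference 0.09, 95% interval -0.33 to 0.52, limma adjusted p = 0.67). Without WT library 1 the log2 difference was 0.32 and passed (limma adjusted p = 0.040), and without WT library 3 it was -0.07.

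**Figure D2:**
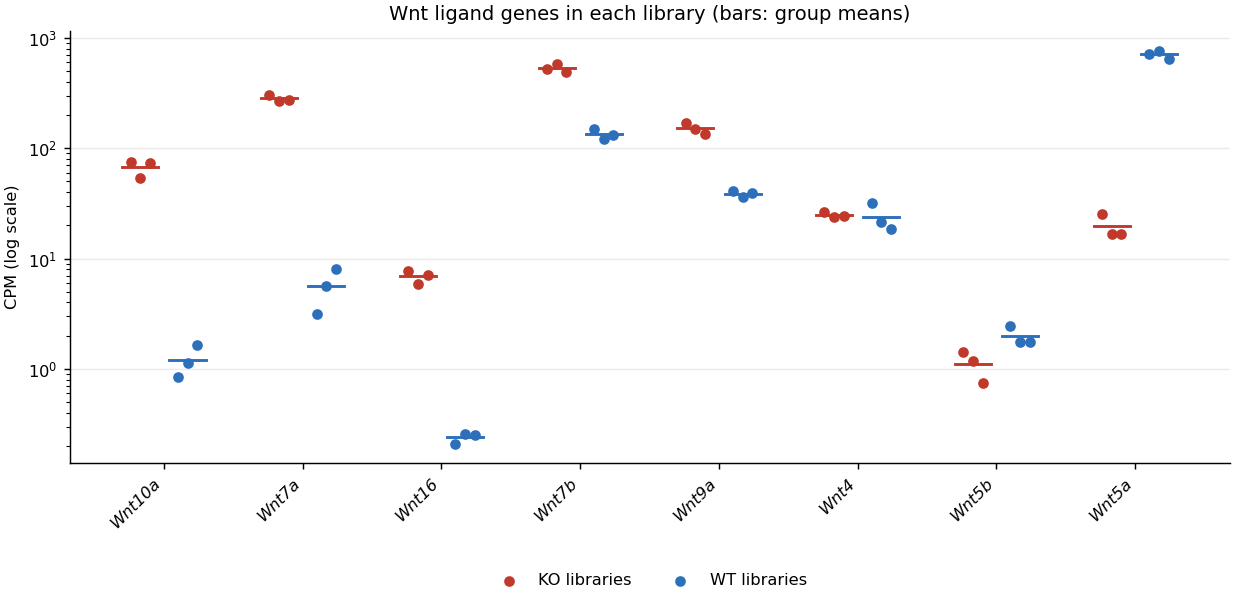
CPM on a log scale (vertical axis) of the 8 Wnt ligand genes in the table, in each KO library (red) and WT library (blue); bars are group means. Wnt10a, Wnt7a, Wnt16, Wnt7b and Wnt9a have every red point above every blue one, Wnt5a has its red points at 16.6 to 25.5 CPM and its blue points at 649 to 762 CPM, and Wnt4 overlaps.

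Scaled by exon length, which allows levels of different genes to be set side by side, the ligand genes summed to 295, 278 and 268 CPM per kb in KO and 145, 141 and 129.7 CPM per kb in WT. The KO sum was 2.03-fold that of WT. In KO, Wnt7b made up 38.6 ± 3.3% of this sum, Wnt7a 31.8 ± 1.2%, Wnt9a 16.1 ± 1.0% and Wnt10a 9.78 ± 1.7% (SD, n = 3). Wnt5a made up 0.888 ± 0.19% in KO and 65.6 ± 3.1% in WT. The rest in WT was mostly Wnt7b, at 19.7 ± 2.0%, and Wnt9a, at 8.40 ± 0.67%, while Wnt7a was at 1.30 ± 0.63%. The leading ligand transcript was thus Wnt7b in all 3 KO libraries, with Wnt7a next, and Wnt5a in all 3 WT libraries. Among the listed genes that could be matched to the annotation, the per-length level of Wnt7a stood at the 96.5th percentile in KO and the 21.1st in WT. That of Wnt5a stood at the 28.1st percentile in KO and the 96.9th in WT.

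Promoter windows from RefSeq (GRCm38.p6, from 250 bases before to 50 after a start) were searched on both strands for CTTTGAT or CTTTGAA, the core that TCF/LEF factors bind, and for the E-box CACCTG. Of 32841 windows, 8.65% held the TCF/LEF letters and 20.2% the E-box. The table held 47 windows of 33 Wnt genes, of which 1, or 2.13%, held the TCF/LEF letters and 10, or 21.3%, the E-box. Among the 14 windows of risen genes 0 and 3 held them, and among the 25 of fallen genes 1 and 4. The windows of Wnt7a, the ligand whose CPM per kb rose most, and of Wnt5b, which has the single TCF/LEF match, are shown 5′ to 3′ with matches in capitals, CTTTGAT 71 bases and CACCTG 43 bases before the Wnt5b start. Wnt5b had 3 windows, of which the other 2 lacked the TCF/LEF letters and 1 of those held an E-box. A match is a description of letters only.
Wnt7a chr6:91411304-91411603, minus strand: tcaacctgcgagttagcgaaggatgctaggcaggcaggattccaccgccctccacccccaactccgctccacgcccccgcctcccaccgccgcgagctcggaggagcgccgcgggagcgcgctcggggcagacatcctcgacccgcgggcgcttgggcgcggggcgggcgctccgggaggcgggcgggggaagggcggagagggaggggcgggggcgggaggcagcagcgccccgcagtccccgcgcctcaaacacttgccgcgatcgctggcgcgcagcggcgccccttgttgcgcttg
Wnt5b chr6:119449337-119449636, minus strand: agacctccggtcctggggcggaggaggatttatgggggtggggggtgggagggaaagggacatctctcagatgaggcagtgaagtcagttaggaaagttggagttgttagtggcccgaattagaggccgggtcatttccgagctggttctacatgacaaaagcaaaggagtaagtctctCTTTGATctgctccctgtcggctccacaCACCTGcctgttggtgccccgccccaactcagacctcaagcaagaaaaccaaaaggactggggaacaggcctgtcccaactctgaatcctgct

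Among the 10 receptors, 7 fell in KO, all of them by at least 2-fold, 1 rose and 2 did not pass, with a median log2 fold change of -1.28. Of all tested genes 33.8% fell, and 16.2% fell by at least 2-fold. Frizzleds are the membrane receptors of Wnt ligands, and 8 of the 10 in the genome were in the table. Fzd7 was at 58.0, 57.7 and 42.0 CPM in KO, against 149, 144 and 147 CPM in WT (log2 fold change -1.50, SE 0.12, limma adjusted p = 1.3e-05). Fzd1, its close relative, was at 39.5, 42.0 and 33.5 CPM in KO and 87.7, 80.5 and 82.8 CPM in WT (log2 fold change -1.13, SE 0.10, limma adjusted p = 1.7e-05). Both were lower in every KO library than in any WT library. Fzd8 was at 18.8, 17.1 and 14.9 CPM in KO and 54.2, 52.0 and 46.4 CPM in WT (log2 fold change -1.59, SE 0.11, limma adjusted p = 4.8e-06). Fzd4, which is also the receptor of Norrin, was at 7.41, 5.74 and 4.75 CPM in KO and 19.3, 17.1 and 13.03 CPM in WT (log2 fold change -1.47, SE 0.20, limma adjusted p = 0.00028). Fzd3, a receptor of the planar polarity branch in neurons, was at 4.45, 4.88 and 2.60 CPM in KO and 12.9, 14.4 and 12.7 CPM in WT (log2 fold change -1.79, SE 0.23, limma adjusted p = 0.00018). None of these 3 overlapped between the lines.

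The other 3 Frizzleds did not pass as fallen. Fzd2 rose, to a mean of 38.0 ± 5.3 CPM in KO, against 22.5 ± 2.1 CPM in WT (SD, n = 3 each, log2 fold change 0.75, SE 0.13, limma adjusted p = 0.00084). Fzd6, the Frizzled with the highest CPM per kb in all 6 libraries, was at 230.2, 253 and 173 CPM in KO and 187, 192 and 285 CPM in WT. Its groups overlapped widely, and the log2 difference was -0.01 (95% interval -0.45 to 0.43, limma adjusted p = 0.97). Fzd5 averaged 45.4 ± 6.7 CPM in KO and 42.6 ± 3.4 CPM in WT and missed the threshold (limma adjusted p = 0.55). A gene on the other strand, outside the table, shares 17.8% of the Fzd5 exon bases. Per kb of exon the Frizzleds summed to 87.1 ± 14 CPM in KO and 123 ± 10 CPM in WT (SD, n = 3 each), a ratio of 0.711. Fzd6 made up 52.0 ± 1.7% of that sum in KO and 37.2 ± 6.1% in WT, and Fzd7 13.3 ± 0.40% in KO and 26.5 ± 2.0% in WT. Fzd2 made up 11.96 ± 0.75% in KO and 5.06 ± 0.84% in WT.

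Among the 49 Wnt genes, both receptors outside the Frizzled family, Ryk and Ror1, fell. Ryk, a receptor without kinase activity that binds Wnts, Wnt5a among them, was at 151, 143 and 137 CPM in KO and 306, 301 and 325 CPM in WT (log2 fold change -1.11, SE 0.07, limma adjusted p = 3.4e-06). Ror1, a receptor of Wnt5a, was at 19.0, 28.1 and 19.6 CPM in KO and 58.2, 63.0 and 54.8 CPM in WT (log2 fold change -1.42, SE 0.15, limma adjusted p = 5.5e-05). Neither overlapped between the lines, so Wnt5a, Ryk and Ror1 were all lower in KO.

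**Figure D3:**
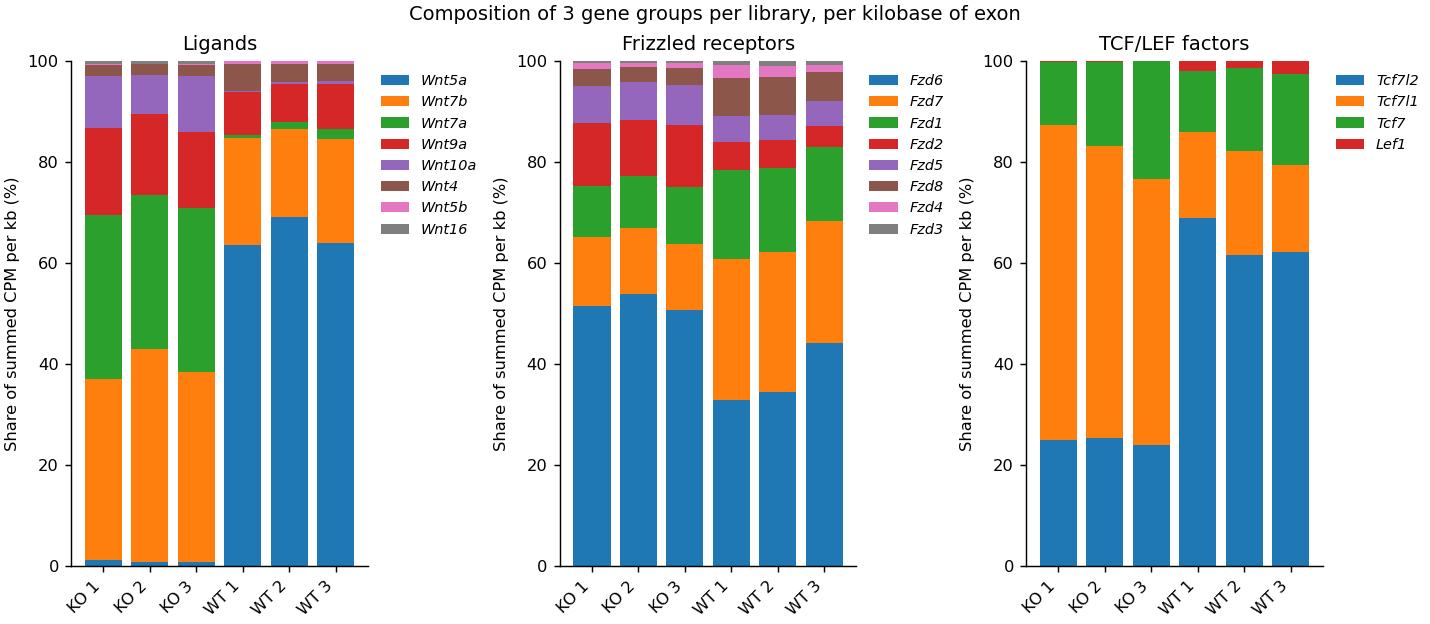
Share of each gene in the summed CPM per kb of exon of its group (vertical axes, percent) in each KO and WT library, for ligands, Frizzled receptors and TCF/LEF factors. Wnt5a fills 63.6 to 69.2% of the ligand bar in the WT libraries and about 1% in KO, Fzd6 is the largest Frizzled share in all 6 libraries, and Tcf7l1 and Tcf7l2 trade the largest TCF/LEF share.

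R-spondins, which hold Frizzleds at the cell surface, were not in the table, but the proteins they act on were. Lgr4, the R-spondin receptor, fell to 57.4, 61.3 and 43.5 CPM in KO, against 129.6, 89.6 and 86.5 CPM in WT (log2 fold change -0.91, SE 0.18, limma adjusted p = 0.0021). Rnf43 and Znrf3 are paired ubiquitin ligases that remove Frizzleds from the surface. Rnf43 was at 7.09, 8.76 and 5.49 CPM in KO and 16.2, 14.0 and 15.9 CPM in WT (log2 fold change -1.13, SE 0.18, limma adjusted p = 0.00055). Znrf3 was at 20.2, 24.2 and 18.6 CPM in KO and 18.0, 19.4 and 18.8 CPM in WT, with overlapping groups, and did not pass (limma adjusted p = 0.27). Of the pair, Rnf43 was thus lower in KO without overlap. In the list of other extracellular genes Lgr6, a paralogue of Lgr4, had 32.5, 45.1 and 22.8 CPM in KO and 0.141, 0.181 and 0.113 CPM in WT. The 2 R-spondin receptors in the data therefore moved in opposite directions (Lgr6 log2 fold change 7.58, SE 0.28, limma adjusted p = 1.1e-07).

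The secreted antagonists held the largest fall of all Wnt genes. Dkk3 is a divergent member of the Dickkopf family, whose other members block Lrp5 and Lrp6. It lies on chromosome 7 from 112116017 to 112159057, minus strand, and was at 1.33, 1.03 and 1.06 CPM in KO, against 382, 284 and 252 CPM in WT. It stayed near 1 CPM in all 3 KO libraries and was 269-fold lower there than in WT (log2 fold change -8.02, SE 0.17, limma adjusted p = 7.9e-09). Dkk2, which binds Lrp5 and Lrp6, was at 3.10, 3.94 and 1.49 CPM in KO and 0.0468, 0 and 0 CPM in WT, from 320 reads in KO and 2 in WT. The ratio of reads at equal depth was 165, with an exact 95% interval of 45.2 to 1366 that covers counting error only, and the gene passed as risen (limma adjusted p = 1.6e-05). Both WT reads were in WT library 1, without which the WT mean was 0.

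Secreted Frizzled-related proteins bind Wnts outside the cell, and their 3 genes in the table spread widely within the lines. Sfrp1 was at 14.9, 28.8 and 14.9 CPM in KO and 43.8, 41.9 and 26.9 CPM in WT. KO library 2 exceeded WT library 3, so the groups overlapped, and the fall (log2 fold change -0.98, SE 0.28, limma adjusted p = 0.014) was lost without KO library 1 (limma adjusted p = 0.056) or KO library 3 (limma adjusted p = 0.060). An antisense gene outside the table shares 16.1% of the Sfrp2 exon bases. Sfrp2 was at 3.64, 10.2 and 2.26 CPM in KO and 0.703, 2.30 and 0.905 CPM in WT, also with overlap. It passed as risen (log2 fold change 1.92, SE 0.59, limma adjusted p = 0.019), but without KO library 2 the KO mean was 2.95 CPM in place of 5.35 CPM and the log2 fold change 1.31 (limma adjusted p = 0.055). Without WT library 1 the call was lost as well (limma adjusted p = 0.056), and without WT library 2 the WT mean was 0.804 CPM in place of 1.30 CPM. Sfrp4, too low to be tested, was at 0.492, 0.399 and 0.663 CPM in KO and 4.52, 1.03 and 0.735 CPM in WT, where the mean of 2.10 CPM was 0.885 CPM without WT library 1.

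**Figure D4:**
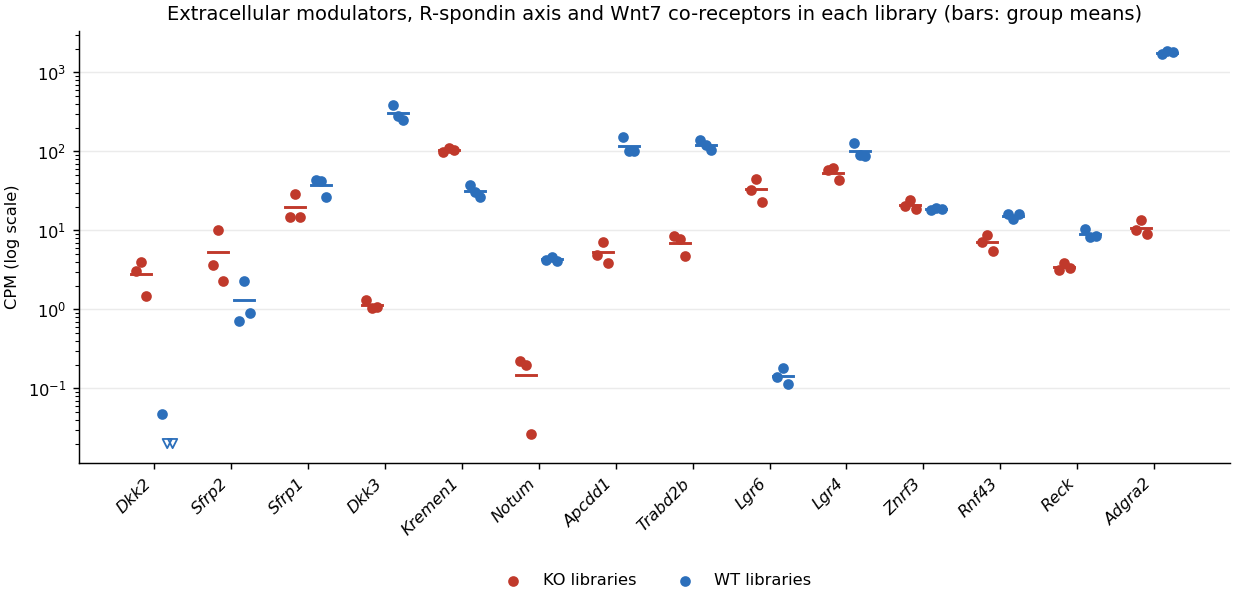
CPM on a log scale (vertical axis) of secreted or membrane modulators, R-spondin axis genes and the Wnt7 co-receptor genes Reck and Adgra2 in each KO library (red) and WT library (blue); bars are group means, drawn where the mean is above the lowest level shown, and open triangles are libraries with 0 reads, placed at the bottom. Dkk3, Adgra2, Apcdd1 and Trabd2b have every red point well below every blue one, Lgr6, Kremen1 and Dkk2 the reverse, and Sfrp1, Sfrp2 and Znrf3 overlap.

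Dishevelled proteins relay the signal from Frizzled, and 2 of the 3 genes fell by less than 2-fold, where 33.8% of all tested genes fell. Dvl1 was at 151 ± 7.1 CPM in KO and 206 ± 20 CPM in WT, and Dvl2 at 37.9 ± 3.3 CPM in KO and 59.7 ± 6.8 CPM in WT (SD, n = 3 each). Their log2 fold changes were -0.45 (limma adjusted p = 0.0021) and -0.65 (limma adjusted p = 0.00077). Acadvl, on the other strand, shares 18.3% of the exon bases of Dvl2 and was at 134 ± 9.9 CPM in KO and 84.1 ± 12 CPM in WT. Dvl3 was at 100.5 ± 12 CPM in KO and 102 ± 9.4 CPM in WT, short of the threshold (limma adjusted p = 0.88).

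Of the 6 genes of β-catenin and its destruction complex, 3 rose, 1 fell and 2 did not pass, with log2 fold changes between -0.34 and 1.24. The share that passed, 66.7%, was near the 68.1% of all tested genes. Ctnnb1, on chromosome 9 from 120929216 to 120960507, plus strand, was at 1049, 987 and 923 CPM in KO and 788, 720.5 and 782 CPM in WT. Every KO library lay above every WT library, by 1.29-fold in the means (log2 fold change 0.37, SE 0.10, limma adjusted p = 0.009). Without WT library 2 the adjusted p was 0.0501. Ulk4 on the other strand shares 14.6% of its exon bases and was at 8.66 ± 1.3 CPM in KO and 8.92 ± 1.1 CPM in WT. Per kb, Ctnnb1 stood at the 98.8th percentile of the listed genes matched to the annotation in KO and the 98.4th in WT.

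Apc, the large scaffold of the complex, was at 218, 243 and 184 CPM in KO and 198, 226 and 238 CPM in WT, with overlap and no call (log2 difference -0.04, 95% interval -0.31 to 0.23, limma adjusted p = 0.77). Its paralogue Apc2, best known from neurons, rose to 36.7 ± 3.3 CPM in KO, against 20.1 ± 2.2 CPM in WT (log2 fold change 0.87, SE 0.12, limma adjusted p = 0.00021). Axin1, the scaffold that limits assembly of the complex, was at 64.8, 72.7 and 70.9 CPM in KO and 74.7, 79.7 and 80.1 CPM in WT. Those groups did not overlap, yet the difference did not pass (log2 difference -0.17, 95% interval -0.35 to 0.01, limma adjusted p = 0.079). Gsk3b, the kinase that phosphorylates β-catenin, was at 224, 230.3 and 170.3 CPM in KO and 271, 257 and 255 CPM in WT. It passed as fallen (log2 fold change -0.34, SE 0.12, limma adjusted p = 0.032), but the call was lost without WT library 1 (limma adjusted p = 0.075), WT library 2 (limma adjusted p = 0.069) or WT library 3 (limma adjusted p = 0.054). Axin2, the Axin paralogue that canonical signalling itself induces as a feedback brake, was at 9.40, 10.3 and 6.13 CPM in KO and 2.95, 2.69 and 5.63 CPM in WT. It rose 2.29-fold without overlap (log2 fold change 1.24, SE 0.31, limma adjusted p = 0.007), and the lowest KO and highest WT library were close.

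In the nucleus, the TCF/LEF factors that partner β-catenin exchanged places. Tcf7l1, mostly a repressor, lies on chromosome 6 from 72626378 to 72789254, minus strand, and was at 25.2, 23.4 and 17.5 CPM in KO and 7.85, 8.46 and 6.05 CPM in WT. It was 2.96-fold higher in KO (log2 fold change 1.56, SE 0.18, limma adjusted p = 9.4e-05). Tcf7l2, on chromosome 19 from 55741820 to 55933654, plus strand, was at 22.6, 22.9 and 17.9 CPM in KO and 71.3, 56.1 and 49.2 CPM in WT. It was 2.79-fold lower in KO (log2 fold change -1.47, SE 0.15, limma adjusted p = 5.1e-05), and neither gene overlapped between the lines. Per kb of exon the 4 factors summed to 9.70 ± 1.1 CPM in KO and 10.4 ± 1.4 CPM in WT (SD, n = 3 each). Tcf7l1 made up 57.6 ± 4.9% of that sum in KO and 18.3 ± 2.1% in WT, and Tcf7l2 24.8 ± 0.63% in KO and 64.3 ± 4.1% in WT. With the longest transcript in place of all exons as the length, Tcf7l2 made up 38.6% in KO and Tcf7l1 12.02% in WT. Tcf7 averaged 4.37 ± 0.90 CPM in KO and 4.14 ± 0.37 CPM in WT, short of the threshold (limma adjusted p = 0.80).

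Lef1, an activator that is itself a target of the pathway, was at 0.123, 0.114 and 0 CPM in KO and 2.08, 1.29 and 2.09 CPM in WT, from 9 reads in KO and 213 in WT. It was low in both lines and 23.1-fold lower in KO (log2 fold change -4.47, SE 0.66, limma adjusted p = 0.00037). KO library 3 held none of the reads, and without it the KO mean was 0.119 CPM in place of 0.0791 CPM and the log2 fold change -3.64. An antisense gene shares 13.7% of the Lef1 exon bases. The promoter windows of Lef1 and Tcf7l1, which moved in opposite directions, are shown from the same RefSeq table with the E-box of Lef1, 31 bases into the transcript, in capitals. The other 3 of the 4 Lef1 windows and the Tcf7l1 window held neither motif.
Lef1 chr3:131110073-131110372, plus strand: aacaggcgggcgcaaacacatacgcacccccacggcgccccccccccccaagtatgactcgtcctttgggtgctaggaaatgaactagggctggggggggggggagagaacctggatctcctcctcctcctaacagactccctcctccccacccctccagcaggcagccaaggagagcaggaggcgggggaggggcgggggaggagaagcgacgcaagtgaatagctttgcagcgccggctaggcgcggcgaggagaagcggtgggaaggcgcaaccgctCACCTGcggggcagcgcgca
Tcf7l1 chr6:72788996-72789295, minus strand: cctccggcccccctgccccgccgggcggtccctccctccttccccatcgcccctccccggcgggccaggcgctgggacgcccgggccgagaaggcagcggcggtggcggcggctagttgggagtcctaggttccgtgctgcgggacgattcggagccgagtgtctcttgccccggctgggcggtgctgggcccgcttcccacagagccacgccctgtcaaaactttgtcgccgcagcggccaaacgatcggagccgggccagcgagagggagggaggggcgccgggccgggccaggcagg

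Tle proteins are corepressors that sit on TCF/LEF factors when β-catenin is absent. Of 6 genes, Tle1, Tle2, Tle3 and Tle4 fell, Tle5 rose and Tle6 did not pass, where 33.8% of all tested genes fell and 34.3% rose. Tle1 averaged 17.7 ± 0.93 CPM in KO and 35.5 ± 3.7 CPM in WT (SD, n = 3 each, log2 fold change -0.998, SE 0.11, limma adjusted p = 5.2e-05). Tle2 averaged 7.89 ± 1.6 CPM in KO and 15.7 ± 4.4 CPM in WT, and Tle4 19.6 ± 2.5 CPM in KO and 32.5 ± 2.2 CPM in WT. Their limma adjusted p was 0.0059 and 0.00061. Tle3, at 106 ± 18 CPM in KO and 135 ± 4.6 CPM in WT (log2 fold change -0.37, limma adjusted p = 0.023), lost its call without KO library 1 (limma adjusted p = 0.051), WT library 1 (limma adjusted p = 0.057) or WT library 2 (limma adjusted p = 0.056). Tle5, the short family member that lacks the repeats of the others, rose to 398 ± 40 CPM in KO, against 263 ± 37 CPM in WT (log2 fold change 0.61, SE 0.12, limma adjusted p = 0.0021). Per kb of exon, Tle5 made up 88.1 ± 1.9% of the Tle sum in KO and 76.3 ± 1.5% in WT. Tle6 was at 0.541, 0.399 and 1.30 CPM in KO and 1.22, 1.29 and 1.22 CPM in WT, with KO libraries 1 and 2 below all WT libraries and KO library 3 level with them. It did not pass (log2 difference -0.89, limma adjusted p = 0.081), but did without KO library 3 (log2 fold change -1.37, KO mean 0.470 CPM in place of 0.747 CPM, limma adjusted p = 0.0029).

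Vangl1 and Vangl2 are membrane proteins of the planar polarity branch, which orients cells within a sheet. Vangl2 rose to 36.3, 36.3 and 32.1 CPM in KO, against 21.3, 20.2 and 17.9 CPM in WT, without overlap (log2 fold change 0.82, SE 0.10, limma adjusted p = 0.00015). Vangl1 averaged 69.5 ± 10 CPM in KO and 67.0 ± 6.3 CPM in WT, with no call (log2 difference 0.05, 95% interval -0.23 to 0.32, limma adjusted p = 0.75).

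Beyond these genes, a list of 102 other Wnt pathway genes held 87 above the filter. The 102 include Aes, an older symbol of Tle5, which is not among the 87. Of these 27 rose and 37 fell, 73.6% in all, near the 68.1% of all tested genes, and their median log2 fold change was -0.05. Among 15 tested co-receptors and extracellular genes, 4 rose and 9 fell, where 34.3% of all tested genes rose and 33.8% fell. Adgra2 and Reck form the membrane complex that makes the Wnt7 ligands act on brain vessels in the mouse, and both fell while Wnt7a and Wnt7b rose. Adgra2 was at 10.02, 13.5 and 9.05 CPM in KO, against 1695, 1874 and 1789.9 CPM in WT, 165-fold lower in KO (log2 fold change -7.38, SE 0.14, limma adjusted p = 4.4e-09). Reck was at 3.15, 3.88 and 3.34 CPM in KO and 10.5, 8.23 and 8.57 CPM in WT (log2 fold change -1.38, SE 0.16, limma adjusted p = 9e-05). Both genes had groups far apart, and Reck was low in both lines.

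Other extracellular genes and co-receptors moved both ways. Apcdd1, a membrane inhibitor, averaged 5.27 ± 1.6 CPM in KO and 118 ± 31 CPM in WT, and Trabd2b, a protease that cleaves Wnts, 6.99 ± 2.0 CPM in KO and 122 ± 18 CPM in WT (SD, n = 3 each). Both fell (log2 fold change -4.49 with limma adjusted p = 8.4e-07, and -4.15 with 8.1e-07). Kremen1, the receptor through which Dickkopfs remove Lrp6, rose to 104 ± 5.6 CPM in KO, against 31.6 ± 6.0 CPM in WT (log2 fold change 1.74, limma adjusted p = 6.7e-06). Tspan12, the Fzd4 partner in Norrin signalling, rose to 6.20 ± 1.6 CPM in KO, against 2.63 ± 0.66 CPM in WT (limma adjusted p = 0.0022), and Ptk7, a co-receptor of the planar polarity branch, by 0.28 on the log2 scale (limma adjusted p = 0.010). Chosen after their values were seen, the deacylase gene Notum averaged 0.149 CPM in KO and 4.29 CPM in WT, and the co-receptors stood at 196 ± 29 CPM in KO and 217 ± 26 CPM in WT for Lrp5 and 161 ± 25 CPM in KO and 206 ± 16 CPM in WT for Lrp6. Of these co-receptors Lrp6 passed as fallen (log2 fold change -0.37, limma adjusted p = 0.025) and Lrp5 did not pass (limma adjusted p = 0.32).

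Among 28 cytoplasmic regulators 13 rose and 8 fell (median log2 fold change 0.12), 75% in all against 68.1% of all tested genes. The Dishevelled-binding Ccdc88c averaged 57.3 ± 11 CPM in KO and 17.2 ± 1.1 CPM in WT, and Ankrd6 8.79 ± 1.2 CPM in KO and 2.96 ± 0.63 CPM in WT (SD, n = 3 each). With them rose Fbxw11, a ubiquitin ligase subunit that recognises β-catenin, by 0.92, and the casein kinase gene Csnk1e, by 0.54 on the log2 scale. Dact2 fell to 2.13 ± 0.71 CPM in KO, against 25.4 ± 4.8 CPM in WT, and the phosphatase subunit gene Ppp2r5a to 52.7 ± 1.9 CPM in KO, against 139 ± 15 CPM in WT. Cxxc5, an inhibitor of Dishevelled, fell by 1.22 and Siah1a, a ubiquitin ligase gene, by 0.47 on the log2 scale. Each of these 8 passed in limma, with adjusted p between 3.1e-06 (Ppp2r5a) and 0.0011 (Csnk1e).

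Among 18 nuclear cofactors 2 rose and 10 fell (median log2 fold change -0.27), 66.7% in all against 68.1% of all tested genes. The corepressor gene Ctbp2 fell to 69.0 ± 0.58 CPM in KO, against 152 ± 12 CPM in WT, its paralogue Ctbp1 by 0.60 and the coactivator gene Crebbp by 0.68 on the log2 scale. Pygo1, a β-catenin cofactor, was at the edge of the threshold (log2 fold change -0.65, limma adjusted p = 0.048) and lost its call in 6 alternatives, without KO library 1 (limma adjusted p = 0.060), KO library 3 (limma adjusted p = 0.15), WT library 1 (limma adjusted p = 0.14) or WT library 3 (limma adjusted p = 0.057) among them. Nlk, a kinase that acts on TCF/LEF factors, rose to 70.0 ± 5.6 CPM in KO, against 40.1 ± 2.0 CPM in WT (limma adjusted p = 6.5e-05).

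The planar polarity and noncanonical genes, 26 tested, divided into 8 risen and 10 fallen, 69.2% in all against 68.1% of all tested genes. Some paralogues parted within them, and others moved the same way. The formin gene Daam1, which links Dishevelled to actin, was at 104, 99.6 and 89.8 CPM in KO and 31.4, 27.3 and 28.4 CPM in WT (log2 fold change 1.75, limma adjusted p = 7.2e-07). Daam2 was at 0.418, 0.599 and 0.398 CPM in KO and 10.2, 9.13 and 11.8 CPM in WT (log2 fold change -4.40, limma adjusted p = 5.8e-07). Neither gene overlapped between the lines. The atypical cadherin genes parted in the same way, with Celsr1 at 119 ± 32 CPM in KO and 31.3 ± 5.5 CPM in WT, and Celsr2 at 60.1 ± 12 CPM in KO and 149.8 ± 16 CPM in WT (SD, n = 3 each). Their limma adjusted p was 6.9e-05 and 8.4e-05. Prickle2, a cytoplasmic polarity protein, was at 0.0738, 0.0285 and 0.0265 CPM in KO and 9.09, 14.0 and 24.5 CPM in WT (log2 fold change -7.80, limma adjusted p = 8.3e-07). The KO mean of 0.0430 CPM was 0.0275 CPM without KO library 1. Prickle1 rose to 29.2 ± 7.3 CPM in KO, against 17.8 ± 2.6 CPM in WT (limma adjusted p = 0.014), a call lost without KO library 1 (limma adjusted p = 0.059) or KO library 2 (limma adjusted p = 0.055). Plcb1, of the calcium branch, fell by 2.27, and Smurf2, a ubiquitin ligase gene, rose by 0.76 on the log2 scale. Chosen after their values were seen, its paralogue Smurf1 rose by 0.44, and the paralogues Mapk8 and Mapk9 both rose, by 0.41 and 0.35.

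Genes commonly used as readouts of β-catenin also moved both ways. Of 24 tested target genes outside the 49, 9 rose and 13 fell (median log2 fold change -0.60), 91.7% in all against 68.1% of all tested genes. Sox9, a target and nuclear regulator of the pathway, was at 131, 127 and 111 CPM in KO and 13.1, 14.3 and 14.3 CPM in WT (log2 fold change 3.14, SE 0.09, limma adjusted p = 3.5e-08). The cyclin gene Ccnd1 was at 886, 576 and 804 CPM in KO and 158, 193 and 351 CPM in WT (log2 fold change 1.75, SE 0.28, limma adjusted p = 0.00064), and shares 23.4% of its exon bases with a gene on the other strand that had 37.1 CPM in KO and 28.3 CPM in WT. Id2, a helix-loop-helix inhibitor, fell to 38.4, 20.4 and 30.0 CPM in KO, against 251, 240.3 and 234 CPM in WT (log2 fold change -3.08, SE 0.20, limma adjusted p = 2.5e-06). All 3 separated the lines without overlap.

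The paralogous homeobox genes Msx1 and Msx2 parted. Msx1 was at 0.369, 0.599 and 0.186 CPM in KO and 7.56, 6.31 and 7.01 CPM in WT (log2 fold change -4.22, limma adjusted p = 1.7e-05). Msx2 had 1368 reads in KO and 1 in WT, a ratio at equal depth of 1408 (exact 95% interval 252 to 55672, counting error only). The homeobox gene Prox1 had 787 reads in KO and 1 in WT, a ratio of 810.3 (145 to 32045). The single WT reads were in WT library 1 for Msx2 and WT library 2 for Prox1, without which the WT means were 0. Tnfrsf19, a receptor of the TNF family, was at 0.142 ± 0.086 CPM in KO and 17.1 ± 8.8 CPM in WT (log2 fold change -6.68, limma adjusted p = 3e-06), and its KO mean was 0.0940 CPM without KO library 3. Apcdd1, given above, is a target as well. The target genes thus included some near 0 in WT and others near 0 in KO.

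**Figure D5:**
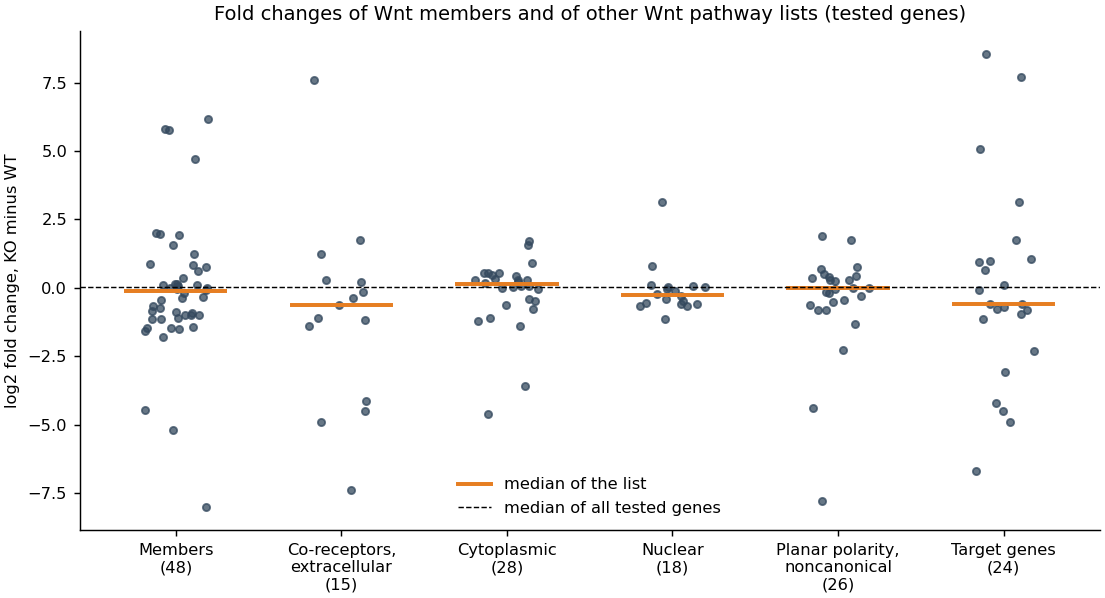
Log2 fold change, KO minus WT (vertical axis), of the tested Wnt genes by list, with the number of tested genes in parentheses; each point is 1 gene, orange bars are list medians and the dashed line is the median of all tested genes at 0.01. Every list spans both directions, and the medians run from -0.61 for co-receptors and extracellular genes to 0.12 for cytoplasmic genes.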

How the data were processed

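Libraries were made from 100 ng of total RNA with an Illumina stranded mRNA kit, per the labels' protocols. Trimmomatic 0.39, STAR 2.7.3a, featureCounts, Subread 1.6.4, edgeR and the build GRCm38 are named per the submitters' processing notes. Whether counting used strand, and with which annotation, filter and prior, is not given in the sources used here. For genes with an overlapping antisense partner, reads may therefore belong to either. Exons of 15 of the 49 Wnt genes overlap a gene on the other strand, which is in the table for 5 of them.

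The authors deposited 1 table of log2 CPM values, 1 column per library. All columns share a lowest value of -5.26. Subtracting it on the linear scale left 100% of values as whole multiples of 1 read, within 0.001 reads, which gave reads, depth and the CPM printed here, without the prior. The total is that of the listed genes, so reads outside them are not in it. Genes low in all libraries were not analysed here.

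The main test was limma 3.58.1 in R 4.3.3 on the deposited log2 CPM for KO minus WT (lmFit and eBayes, trended by intensity, no covariates), with Benjamini-Hochberg adjustment over all 12616 genes above 0 log2 CPM in at least 3 of 6 libraries. A gene passed at an adjusted p under 0.05. Fold changes are on the scale with the prior and understate those of low genes. The unit is log2, so no count model served as main test, and voom, run on recovered reads, was tried beside it. The procedure was tested on simulated data first. Nothing in the labels says that replicates came from separate cultures, so p-values measure the spread between these libraries, which may be technical. Exact intervals and 3-read limits cover counting error only.

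Positions and exon lengths came from GENCODE M21 on GRCm38, which may differ from the annotation behind the table. All 49 Wnt genes had a position, 1 of them through a RefSeq synonym (Tle5). CPM per kb used the union of annotated exons. Promoter windows were read from a RefSeq table of GRCm38.p6, which held 33 of the 49 genes.

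Values in every library were given for Wnt genes that passed with at least 2-fold change and at least 5 CPM in the higher line, and for Ctnnb1, Apc, Gsk3b, Axin1, Axin2 and Lef1 whatever their change. These were 24 genes, and others were added where 1 library decided a call or a value. Lgr4, Znrf3 and Vangl2 were also given in every library, outside these rules. From each other Wnt list up to 4 risen and 4 fallen genes with the largest change were named, among those with groups that did not overlap and at least 5 CPM in the higher line. Lists of other pathway genes, target genes and cell type markers came from textbook knowledge. The Wnt genes, lists and tests were chosen with earlier results of these data known. Alternatives covered the filter, the pseudocount, the scaling, the test, the replicate number as a block and each library left out, 14 in all, and for the per-length shares the longest transcript.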

Additional observations from a re-analysis of the deposited data

How the results depend on the processing

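Of the 36 Wnt genes that passed, 28 kept their call in all 14 alternatives, and Dkk2 and Lef1 kept it in the 13 in which they were tested. None of the 36 changed direction where tested. Over these, 13 to 14 Wnt genes rose and 19 to 22 fell, and the median of all genes stayed between 0.0023 and 0.061 on the log2 scale. The calls that all tested genes kept over the same alternatives are not given here. The counts above therefore cannot be read as particular to the Wnt genes. Wnt5b (limma adjusted p = 0.070 under quantile normalization) and Gsk3b (limma adjusted p = 0.059 without the intensity trend) lost their calls beyond the libraries named above. The stricter filter left 44 Wnt genes tested. The replicate block left 14 Wnt genes risen and 22 fallen and changed no call. Deviations from the group means correlated at 0.101, 0.0811 and -0.0951 for same-numbered libraries, and at -0.217 to 0.177 for the others. With 3 libraries per group these values cannot tell whether replicate numbers pair the libraries, and the labels do not say. With 1 library left out, 9 Wnt genes that did not pass changed the sign of their log2 difference, between -0.020 and 0.33 for Porcn, -0.16 and 0.0024 for Wls, -0.0030 and 0.21 for Fzd5, -0.12 and 0.19 for Fzd6, -0.072 and 0.32 for Wnt4, -0.089 and 0.079 for Dvl3, -0.13 and 0.066 for Apc, -0.072 and 0.23 for Tcf7, and -0.039 and 0.17 for Vangl1. Fzd6 was at 0.0084 under quantile normalization. With the longest transcript as the length, shares in KO were 27.1% for Wnt7a, 47.4% for Wnt7b, 54.7% for Fzd6, 12.6% for Fzd7, 49.0% for Tcf7l1 and 38.6% for Tcf7l2, and in WT 24.4% for Wnt7b, 12.02% for Tcf7l1 and 77.1% for Tcf7l2. Wnt7b, Fzd6 and Tcf7l1 remained the largest shares in KO and Tcf7l2 in WT. Where 3 reads equal 0.0703 to 0.0856 CPM, genes such as Dkk2 and Lef1 are limited by depth in the line where they are low.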
